A study of Homo sapiens with 6 samples.

Results

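Small leucine-rich proteoglycans are secreted matrix proteins, and 7 genes that encode them (DCN, BGN, LUM, FMOD, OGN, PRELP and ASPN) were followed in Ewing sarcoma cells. They were chosen by gene name, with earlier results of these data known. Each of the 7 was found among the 22604 genes of the count table. RNA-seq was done on SKNMC, an established Ewing sarcoma line that carries the EWS-FLI1 fusion, after infection with a lentiviral vector and selection with puromycin. One group expressed V5-tagged NFIB that lacks its intrinsically disordered region (IDR), termed NFIB ΔIDR, another expressed full-length V5-tagged NFIB, termed NFIB WT, and the control carried the empty expression vector (EV). Each group had 2 libraries. The question was how these genes are expressed in SKNMC cells and how each form of the transcription factor NFIB changes their RNA. NFIB RNA itself was not at one level in the 2 construct groups (log2 ratio 1.17 of NFIB ΔIDR over NFIB WT), so that the form of NFIB and its amount cannot be told apart between them.

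Proteins of this family share a core of leucine-rich repeats, and most carry chains of chondroitin, dermatan or keratan sulfate. They bind collagen fibrils and control their thickness and spacing, and several also bind growth factors such as TGF-beta or cell surface receptors. They are best known from connective tissue, where fibroblasts, tendon cells and chondrocytes make them. Decorin (DCN), biglycan (BGN) and asporin (ASPN) form one class of the family, lumican (LUM), fibromodulin (FMOD) and PRELP a second, and osteoglycin (OGN) belongs to another.

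The libraries held between 6664231 and 8465572 counts, and 1 CPM, a count scaled to the size of its library, stood for 6.66 counts in the smallest. Levels are TMM-scaled CPM with the SD between the 2 libraries of each group, and log2 ratios are fitted log2 fold changes with their SE. A change was called at an adjusted p under 0.05 in edgeR's quasi-likelihood test and Benjamini-Hochberg adjustment over 13501 genes with enough counts, all 6 libraries being fitted together. NFIB was at 2227 and 2332 CPM in NFIB ΔIDR cells, at 969 and 1051 CPM in NFIB WT cells and at 176 and 145 CPM in EV cells, and these reads include the constructs. The summed level of 9 Ewing sarcoma markers was 1494 to 1510 CPM in NFIB ΔIDR cells, 1470 to 1505 CPM in NFIB WT cells and 1546 to 1557 CPM in EV cells, and none was at 0. The NFIB WT libraries differed from each other more than the other pairs did. Their chi-square per degree of freedom was 10.2, against 1.69 for NFIB ΔIDR and 1.91 for EV, and 4 structural RNAs summed to 2566 CPM in NFIB WT replicate 1 and 1735 CPM in replicate 2. No pair agreed within sampling noise.

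SKNMC cells with EV expressed 4 of the 7 genes at more than 10 CPM. Per kilobase (kb) of gene model, so that genes can be set side by side, LUM was highest with EV at 28.1 ± 0.428 CPM per kb (SD, n = 2), above 79.6% of the genes tested. DCN followed at 18.8 ± 0.621 CPM per kb, above 70.9% of them. ASPN and OGN were at 5.20 ± 1.45 and 4.62 ± 1.03 CPM per kb with EV, and their libraries overlapped. BGN, at 0.508 ± 0.246 CPM per kb with EV, FMOD, at 0.0995 ± 0.0370, and PRELP, at 0.0337 ± 0.0187, were each lower than the gene before without overlap, although FMOD and PRELP rested on 1 to 3 counts a library. The order of the 7 genes was the same in the 3 groups, and between neighbors in that order only ASPN and OGN with EV overlapped. LUM and DCN held 72.7% of the counts of all 7 genes in both NFIB ΔIDR libraries, 84.8% and 85.5% in the NFIB WT libraries, and 79.4% and 84.6% in the EV libraries. Fewer expressing cells and less RNA per cell cannot be told apart in bulk RNA.

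**Figure D1:**
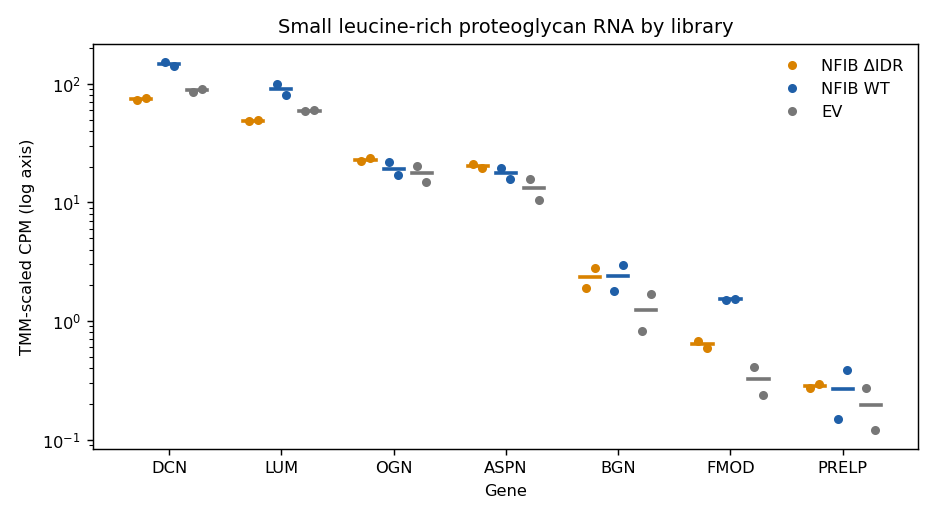
TMM-scaled CPM (vertical log axis) of the 7 genes (horizontal axis) in each library, with NFIB ΔIDR in orange, NFIB WT in blue and EV in gray; points are libraries and bars are means of 2. DCN and LUM are highest with NFIB WT and lowest with NFIB ΔIDR, while PRELP lies between 0.119 and 0.386 CPM.

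DCN, which binds collagen fibrils and holds TGF-beta in the matrix, was the member that passed the test against EV. It was at 152 and 142 CPM in NFIB WT cells, against 86.0 and 90.1 CPM in EV cells. Both NFIB WT libraries lay above both EV libraries, and the difference passed (log2 ratio 0.74 ± 0.09 SE, adjusted p = 0.00608 in edgeR's test). Of all genes tested, 0.452% were called higher with NFIB WT than with EV and 0.163% lower. DCN was at 73.7 and 75.9 CPM in NFIB ΔIDR cells, below both EV libraries, but this difference did not pass (log2 ratio -0.24 ± 0.09 SE, adjusted p = 0.265 in edgeR's test). Between the constructs, the mean was 74.8 ± 1.52 CPM in NFIB ΔIDR cells and 147 ± 7.04 CPM in NFIB WT cells. DCN was thus lower with NFIB ΔIDR than with NFIB WT by 0.97 on the log2 scale (log2 ratio -0.97 ± 0.09 SE, adjusted p = 0.000433), and 5.52% of all genes tested were called lower in this comparison and 5.19% higher. The call between the constructs held in each of the 14 alternative fits, with an adjusted p of at most 0.0303. The call against EV was lost in a fit of the EV and NFIB WT libraries alone (adjusted p = 0.0765), and without EV replicate 1 (0.178) or 2 (0.159) or NFIB ΔIDR replicate 1 (0.0621) or 2 (0.0620), with log2 fold changes of 0.71 to 0.77.

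LUM, a keratan sulfate proteoglycan that organizes collagen fibrils and is known from the cornea and skin, had values that followed those of DCN. It was at 48.6 and 49.2 CPM in NFIB ΔIDR cells, at 99.1 and 80.1 CPM in NFIB WT cells and at 58.8 and 60.1 CPM in EV cells. The 3 groups did not overlap, and the NFIB WT libraries lay farthest apart. LUM was lower with NFIB ΔIDR than with NFIB WT (log2 ratio -0.87 ± 0.12 SE, adjusted p = 0.00183 in edgeR's test). This call was lost without NFIB ΔIDR replicate 1 or 2 (adjusted p = 0.0583 each), with log2 fold changes of -0.87 and -0.88. Against EV, LUM was at 0.59 on the log2 scale with NFIB WT (± 0.11 SE, adjusted p = 0.0508) and at -0.28 with NFIB ΔIDR (± 0.12 SE, adjusted p = 0.286), and neither passed. The first was called by DESeq2 (adjusted p = 0.0360), and was 0.43 without NFIB WT replicate 1 and 0.74 without NFIB WT replicate 2, both called. The ratio of DCN to LUM per kb was 0.686 and 0.698 with NFIB ΔIDR, 0.691 and 0.799 with NFIB WT and 0.661 and 0.677 with EV.

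In a fit of the NFIB ΔIDR and EV libraries alone, DCN and LUM were called lower with NFIB ΔIDR than with EV. The adjusted p was 0.0202 for DCN and 0.0141 for LUM in edgeR's test, and their log2 fold changes were -0.24 and -0.28. The same fit called ASPN and OGN higher. The share of all genes called in that fit was not computed, so these calls have no background beside them. The SD of the log2 difference between replicates over genes was 0.279 for NFIB ΔIDR, 0.376 for NFIB WT and 0.281 for EV.

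DCN and LUM are neighbors on chromosome 12. DCN lies from 91534261 to 91576994 of hg19 and LUM from 91496406 to 91505271, both on the minus strand and 29 kb apart. Beyond LUM on the same strand lie the family members KERA (keratocan, of the cornea) and EPYC (epiphycan, of cartilage), neither of them among the 7 genes. KERA had 3 counts over both libraries with NFIB ΔIDR, 2 with NFIB WT and 0 with EV, and EPYC had 7, 2 and 1. Apart from the 4 counts of EPYC in 1 library, neither gene went above 3 counts in any library.

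FMOD, a collagen-binding keratan sulfate proteoglycan of tendon and cartilage, was near the limit of detection. It had 5 and 4 counts with NFIB ΔIDR, 10 and 12 with NFIB WT and 3 and 2 with EV, and these libraries did not overlap. It passed the expression filter through the NFIB WT libraries alone, so the ratios of its counts are a description. The intervals given with them leave out the spread between libraries. That spread over genes was largest for NFIB WT (chi-square per degree of freedom 10.2). The summed counts gave 4.79 times the level of EV with NFIB WT (95% interval 1.77 to 16.2, exact binomial, counting error alone) and 1.99 times with NFIB ΔIDR (0.600 to 7.58). In edgeR's test, the log2 fold change was 2.20 with NFIB WT against EV (SE 0.55, adjusted p = 0.115) and -1.24 with NFIB ΔIDR against NFIB WT (SE 0.48, adjusted p = 0.126). Neither passed, and the first passed with no filter on low counts (adjusted p = 0.0456). PRELP, which links collagen to basement membranes, lies 124 kb from FMOD on chromosome 1 (203444934 to 203460480, and 203309756 to 203320886 for FMOD). PRELP had 2 and 2 counts with NFIB ΔIDR, 1 and 3 with NFIB WT and 2 and 1 with EV. It did not pass the filter and no difference was detectable at this depth.

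BGN, which binds collagen and toll-like receptors, was also low. It was at 1.89 and 2.81 CPM in NFIB ΔIDR cells, at 1.80 and 2.96 CPM in NFIB WT cells and at 0.819 and 1.67 CPM in EV cells. The libraries of both constructs lay above those of EV, and those of the constructs overlapped each other. The log2 fold change was 0.87 with NFIB ΔIDR (SE 0.45, adjusted p = 0.402 in edgeR's test) and 0.92 with NFIB WT (SE 0.45, adjusted p = 0.402) against EV, so neither passed. Without EV replicate 2 these were 1.49 and 1.54, and the range when single libraries were left out was 0.48 to 1.49 with NFIB ΔIDR and 0.50 to 1.54 with NFIB WT. Between the constructs it was -0.05 (SE 0.40, adjusted p = 0.948). BGN lies on the X chromosome from 152760438 to 152775004, and its first part overlaps HAUS7 on the opposite strand.

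ASPN, which binds collagen and restrains TGF-beta in cartilage, differed from DCN in that its mean was highest with NFIB ΔIDR. It was at 21.0 and 19.5 CPM in NFIB ΔIDR cells, at 19.6 and 15.7 CPM in NFIB WT cells and at 15.7 and 10.5 CPM in EV cells. Both constructs lay above EV, NFIB WT replicate 2 and EV replicate 1 being 15.71 and 15.70 CPM, but neither difference passed (log2 ratio 0.64 ± 0.19 SE, adjusted p = 0.152 with NFIB ΔIDR, and 0.44 ± 0.19 SE, adjusted p = 0.365 with NFIB WT, edgeR). With NFIB ΔIDR the call was made in the fit of these 2 groups alone (adjusted p = 0.000384), with no filter on low counts (0.0111) and without NFIB WT replicate 1 or 2 (0.000321 and 0.000285). With NFIB WT it was made without NFIB WT replicate 2 (0.00629).

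OGN, known from bone and cartilage, was at 22.2 and 23.8 CPM in NFIB ΔIDR cells, at 21.7 and 16.9 CPM in NFIB WT cells and at 20.3 and 14.8 CPM in EV cells. The NFIB WT and EV libraries overlapped, and the NFIB ΔIDR libraries lay above both. No comparison of OGN passed in edgeR's test (log2 fold change 0.39 with NFIB ΔIDR against EV, SE 0.17, adjusted p = 0.317, and 0.14 with NFIB WT against EV, SE 0.18, adjusted p = 0.772). OGN was called higher with NFIB ΔIDR than with EV in the fit of these groups alone (adjusted p = 0.0285) and without NFIB WT replicate 1 or 2, and higher than with NFIB WT without NFIB WT replicate 1 (adjusted p = 0.0444).

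OGN (95145550 to 95166978) and ASPN (95218487 to 95244788) lie on chromosome 9 beside the family members OMD (osteomodulin, of bone) and ECM2, all on the minus strand and inside the span of CENPP, a centromere gene on the plus strand. The sources used here do not say whether reads were counted by strand, so reads of CENPP transcripts across these exons cannot be told apart from their own. The 4 genes were at 3.52 (OMD), 4.29 (ECM2), 4.62 (OGN) and 5.20 (ASPN) CPM per kb with EV. CENPP, which was looked at after these values were seen, was at 6.55 over its own gene model of 3656 bases. How many CENPP reads fell on the exons of the 4 genes was not measured. The level of CENPP was 24.0 ± 0.282 CPM in NFIB ΔIDR cells, 23.9 ± 4.88 CPM in NFIB WT cells and 24.0 ± 1.45 CPM in EV cells. ECM2 was at 21.1 ± 1.30 CPM in NFIB ΔIDR cells and 14.7 ± 0.580 CPM in NFIB WT cells, and was higher with NFIB ΔIDR (log2 ratio 0.52 ± 0.14 SE, adjusted p = 0.0366 in edgeR's test), a call that held in 8 of 14 alternative fits. OMD did not pass in the same comparison (log2 ratio 0.50 ± 0.29 SE, adjusted p = 0.286).

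**Figure D2:**
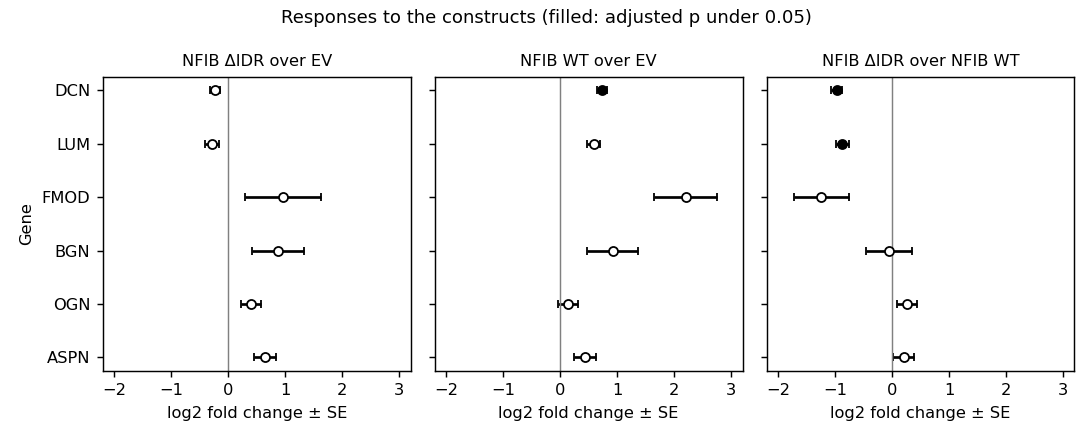
Log2 fold change (horizontal axes) with its SE for the 6 tested genes (vertical axis) in the 3 comparisons; filled points passed at an adjusted p under 0.05. DCN is filled with NFIB WT over EV (0.74), and DCN (-0.97) and LUM (-0.87) are filled with NFIB ΔIDR over NFIB WT.

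Since the 7 genes were chosen with earlier results of these data known, their counts beside the shares of all genes are a description. Counted over the 7 genes, the NFIB WT libraries lay above the EV libraries without overlap for 5 genes and below for 0. The 5 were DCN, BGN, LUM, FMOD and ASPN. For ASPN this rests on 15.71 CPM in NFIB WT replicate 2 against 15.70 CPM in EV replicate 1, which is close to an overlap. Of all genes tested, 21.7% lay above and 21.2% below. The NFIB ΔIDR libraries lay above EV for 4 genes (BGN, FMOD, OGN and ASPN) and below for 2 (DCN and LUM), where 26.2% and 27.1% of all genes tested did. Against NFIB WT, the NFIB ΔIDR libraries lay below for 3 genes (DCN, LUM and FMOD) and above for 1 (OGN), where 27.6% and 27.8% did. FMOD is among the 5 and the 3, but the filter admitted it through its high NFIB WT libraries alone. Its place in these 2 counts is thus a description. PRELP, which was not tested, overlapped in each comparison. By edgeR's test, 0 of the 6 tested genes passed with NFIB ΔIDR against EV, where 0.296% of all genes tested were called higher and 0.356% lower. By DESeq2, also 0 passed, and at an unadjusted p under 0.05 in edgeR's test 4 did (ASPN and OGN higher, DCN and LUM lower), where 7.77% of all genes tested were higher and 7.42% lower. A fit of the NFIB ΔIDR and EV libraries alone called the same genes in the same directions, and its share of all genes was not computed. When calls were made at 1.5-fold or more with p unadjusted (under 0.05), DCN and LUM were higher and 0 genes lower with NFIB WT than with EV, where 2.13% of all genes tested were higher and 1.75% lower. By that rule ASPN was higher and 0 genes were lower with NFIB ΔIDR than with EV, where 3.09% and 1.68% were. Between the constructs, DCN and LUM were lower and 0 genes higher with NFIB ΔIDR, where 4.3% of all genes tested were lower and 5.69% higher. FMOD also met this rule against EV with NFIB WT and between the constructs. It is left out of the counts by this rule because it entered the test through its NFIB WT libraries alone.

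The core motif of NFI proteins, TGGCA, was looked for in the 250 bases before each start site, since NFIB was the factor put into the cells. RefSeq promoter entries (GRCh38.p14) matched 5 of the 7 genes, and DCN and LUM did not match. On either strand TGGCA was in 5 of 6 entries of these genes (OGN has 2 start sites), against 41.0% of 35116 promoter entries. FMOD held 2 matches, at 221 and 35 bases before the start. BGN (at 160), PRELP (at 174), ASPN (at 141) and the downstream start of OGN (at 93) held 1 each, and the upstream start of OGN held none. GGAAGGAA, a pair of the GGAA units that EWS-FLI1 binds, was in none and in 3.06% of all. Shown are FMOD, whose counts were highest with NFIB WT, and ASPN and OGN, whose means were highest with NFIB ΔIDR, with the motif in capitals on either strand (TGCCA is its reverse complement). A match is a string of letters and no evidence of binding, which was not measured here.
FMOD, chr1:203351123-203351372, minus strand: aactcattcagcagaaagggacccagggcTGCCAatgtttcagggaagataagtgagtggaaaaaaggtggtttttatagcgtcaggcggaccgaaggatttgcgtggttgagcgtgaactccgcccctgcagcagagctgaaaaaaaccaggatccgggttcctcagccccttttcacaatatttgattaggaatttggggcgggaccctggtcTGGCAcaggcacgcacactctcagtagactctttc
ASPN, chr9:92482507-92482756, minus strand: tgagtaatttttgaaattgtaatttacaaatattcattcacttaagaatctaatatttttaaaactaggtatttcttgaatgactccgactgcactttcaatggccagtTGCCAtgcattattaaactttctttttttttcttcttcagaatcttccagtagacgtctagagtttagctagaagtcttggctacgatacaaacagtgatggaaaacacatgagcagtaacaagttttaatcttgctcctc
OGN, downstream start, chr9:92404579-92404828, minus strand: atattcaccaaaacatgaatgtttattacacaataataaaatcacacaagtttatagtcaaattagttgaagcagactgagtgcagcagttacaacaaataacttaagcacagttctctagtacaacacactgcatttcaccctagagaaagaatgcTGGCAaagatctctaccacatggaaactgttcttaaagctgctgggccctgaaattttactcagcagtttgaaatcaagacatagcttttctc

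The chains on these proteins are built by enzymes that were measured in the same libraries. This list and those below were also chosen with earlier results of these data known, so their counts are a description. Of 13 tested genes for chondroitin and dermatan sulfate, 2 were lower with NFIB ΔIDR than with NFIB WT and 0 were higher, with a median log2 fold change of -0.27, next to 0.00087 for all genes tested. Of all genes tested, 5.52% were called lower and 5.19% higher. CHST11, which sulfates chondroitin, was at 5.06 ± 0.886 CPM in NFIB ΔIDR cells and 15.9 ± 0.146 CPM in NFIB WT cells (log2 ratio -1.65 ± 0.19 SE, adjusted p = 0.00115 in edgeR's test), next to 9.82 ± 1.55 CPM in EV cells. DSEL, an epimerase that turns chondroitin into dermatan sulfate, was at 53.5 ± 3.10 CPM in NFIB ΔIDR cells and 86.7 ± 6.29 CPM in NFIB WT cells (log2 ratio -0.70 ± 0.11 SE, adjusted p = 0.00351). Its paralog DSE was at 30.3 ± 0.170 CPM in NFIB ΔIDR cells, 31.5 ± 3.19 CPM in NFIB WT cells and 22.7 ± 0.0633 CPM in EV cells, and passed in no comparison. CHST7, another chondroitin sulfotransferase, was at 0.910 ± 0.243 CPM in NFIB ΔIDR cells and 2.07 ± 0.169 CPM in NFIB WT cells (log2 ratio -1.16 ± 0.42 SE, adjusted p = 0.105). The call of CHST11 held in each of 14 alternative fits, and that of DSEL in 12, being lost without NFIB ΔIDR replicate 1 or 2 (adjusted p up to 0.0856). Against EV, 0 of the 13 genes passed with NFIB ΔIDR (median -0.07) and 0 with NFIB WT (median 0.25).

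Of 4 tested genes for keratan sulfate, the chain of LUM and FMOD, 1 was lower with NFIB ΔIDR than with NFIB WT. Of all genes tested, 5.52% were. The gene called was B4GALT1, a galactosyltransferase of many glycans. It was at 41.7 ± 1.82 CPM in NFIB ΔIDR cells and 57.7 ± 5.81 CPM in NFIB WT cells (log2 ratio -0.46 ± 0.11 SE, adjusted p = 0.0257 in edgeR's test). That call held in 8 of 14 alternative fits and was lost in DESeq2. CHST1, which sulfates keratan chains, was at 1.56 ± 0.0959 CPM in NFIB ΔIDR cells and 3.39 ± 1.15 CPM in NFIB WT cells and did not pass (log2 ratio -1.10 ± 0.37 SE, adjusted p = 0.0873), nor did B4GALT4 and B3GNT2. CHST6, the corneal keratan sulfotransferase, had at most 2 counts in any library. None of the 4 passed against EV with either construct, and the medians were -0.29 for NFIB ΔIDR against EV, 0.11 for NFIB WT against EV and -0.34 between the constructs. The 6 linker enzymes that start chondroitin and dermatan sulfate chains, but not keratan sulfate, passed in no comparison, with medians of -0.03 for NFIB ΔIDR against EV, 0.0046 for NFIB WT against EV and -0.02 between the constructs. Among them, the kinase FAM20B was at 93.6 ± 7.11 CPM in NFIB ΔIDR cells, 84.7 ± 6.85 CPM in NFIB WT cells and 83.5 ± 3.88 CPM in EV cells.

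**Figure D3:**
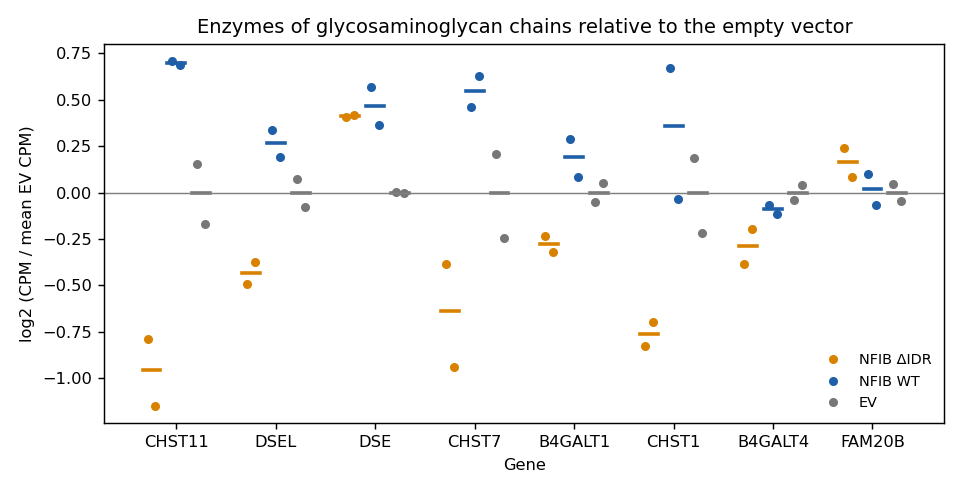
CPM of each library over the EV mean, as log2 (vertical axis), for 8 enzymes of glycosaminoglycan chains (horizontal axis); points are libraries and bars are group means. CHST11 lies highest with NFIB WT and lowest with NFIB ΔIDR, and FAM20B stays near 0 in the 3 groups.

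Collagens that these proteoglycans bind did not move in one direction. Of 11 tested, 4 were called higher (COL11A1, COL14A1, COL1A1 and COL6A3) and 2 lower (COL1A2 and COL3A1) with NFIB ΔIDR than with NFIB WT. Their median log2 fold change was 0.27 over the 11, and 5.19% of all genes tested were called higher and 5.52% lower. COL11A1 and COL6A3 passed the expression filter through the NFIB ΔIDR libraries alone, where they were high, so that COL14A1 and COL1A1 are the higher calls that the filter did not favor. COL14A1, a collagen that sits on fibril surfaces, was at 17.1 ± 0.902 CPM in NFIB WT cells and 37.6 ± 0.914 CPM in EV cells and fell (log2 ratio -1.13 ± 0.12 SE, adjusted p = 0.00200 in edgeR's test). It was the collagen of the list called against EV with NFIB WT, where DCN rose (median of the list -0.05), and 0 were called with NFIB ΔIDR (median 0.10). Of all genes tested, 0.163% were called lower with NFIB WT than with EV. COL1A1 was at 8.06 ± 0.297 CPM in NFIB ΔIDR cells and 3.76 ± 0.869 CPM in NFIB WT cells (log2 ratio 1.08 ± 0.23 SE, adjusted p = 0.0156). COL1A2, whose chain joins that of COL1A1 in type I collagen, was lower with NFIB ΔIDR, at 60.2 ± 4.71 CPM against 85.5 ± 5.99 CPM in NFIB WT cells (log2 ratio -0.51 ± 0.11 SE, adjusted p = 0.0170). The call of COL14A1 against EV was lost without EV replicate 1 (adjusted p = 0.0626), and those of COL1A1 and COL1A2 without NFIB ΔIDR replicate 1 or 2 (adjusted p up to 0.130 and 0.195) and, for COL1A1, in DESeq2. The call of COL6A3 held in 7 of 14 alternative fits and that of COL3A1 in 9 (adjusted p up to 0.324 and 0.234). COL6A3 and COL3A1 were named because they were called, and not by the rule for named genes.

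Of 15 tested ligands and receptors that members of the family are known to bind, 1 was higher and 2 were lower with NFIB ΔIDR than with NFIB WT (median -0.02). Of all genes tested, 5.19% were higher and 5.52% lower. Against EV, 0 of the 15 passed with NFIB ΔIDR (median 0.05) or NFIB WT (median -0.02). BMP2, a bone morphogenetic protein, was at 41.1 ± 1.54 CPM in NFIB ΔIDR cells and 17.1 ± 3.21 CPM in NFIB WT cells (log2 ratio 1.28 ± 0.14 SE, adjusted p = 0.000813 in edgeR's test). ELN, the elastin gene, was at 12.2 ± 0.750 CPM in NFIB ΔIDR cells and 23.7 ± 0.789 CPM in NFIB WT cells (log2 ratio -0.96 ± 0.13 SE, adjusted p = 0.00255), and TGFBR1, a TGF-beta receptor, was also lower (log2 ratio -0.74 ± 0.16 SE, adjusted p = 0.0170). The call of BMP2 held in each of 14 alternative fits, while ELN lost its call without NFIB ΔIDR replicate 1 (adjusted p = 0.0590) and TGFBR1 without NFIB ΔIDR replicate 1 or 2 (up to 0.191). The receptors EGFR and CD44 had at most 2 and 1 counts in any library. CTGF, a matrix growth factor that DCN binds, was at 5.90 ± 1.46 CPM in NFIB ΔIDR cells, 7.48 ± 0.0207 CPM in NFIB WT cells and 4.20 ± 0.146 CPM in EV cells, and passed in no comparison.

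Of 8 tested proteases that trim or cleave these proteins, MMP13, a collagenase of cartilage, was higher with NFIB ΔIDR, at 1.69 ± 0.0954 CPM against 0.204 ± 0.0764 CPM in NFIB WT cells (adjusted p = 0.0169 in edgeR's test). Of all genes tested, 5.19% were called higher and 5.52% lower in this comparison. MMP13 had 13 and 11 counts in NFIB ΔIDR libraries, 1 and 2 in NFIB WT libraries and 2 and 5 in EV libraries. It passed the expression filter through the NFIB ΔIDR libraries alone, where it was high, so its call is a description, and it was lost without NFIB ΔIDR replicate 1 or 2 (adjusted p up to 0.144). BMP1, which removes the propeptides of BGN and OGN, was at 6.97 ± 0.469 CPM in NFIB ΔIDR cells, 10.7 ± 2.03 CPM in NFIB WT cells and 7.11 ± 0.594 CPM in EV cells, and the difference between the constructs did not pass (adjusted p = 0.0783). ADAMTS4, an aggrecanase, was at 21.5 ± 0.351 CPM in NFIB WT cells and 13.8 ± 0.416 CPM in EV cells and did not pass (log2 ratio 0.64 ± 0.13 SE, adjusted p = 0.0718). Against EV, 0 of the 8 passed with either construct (median 0.09 with NFIB ΔIDR and -0.11 with NFIB WT), and the median between the constructs was -0.03.

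DCN and LUM also mark fibroblasts. A list of 9 fibroblast markers, which leaves out both genes, summed to 326 and 331 CPM in NFIB ΔIDR cells. The sum was 379 and 419 CPM in NFIB WT cells and 339 and 347 CPM in EV cells. Within it, COL3A1 was at 141 ± 16.3 CPM in NFIB WT cells and 101 ± 8.67 CPM in EV cells. The markers did not move together: COL1A2, COL3A1, FAP, S100A4 and FBLN1 were higher with NFIB WT than with EV, and COL1A1, PDGFRA, PDGFRB and THY1 lower. FAP, a cell surface protease, was at 32.1 ± 0.0717 CPM in NFIB WT cells and 19.9 ± 0.479 CPM in EV cells, and was the marker called higher with NFIB WT (log2 ratio 0.69 ± 0.11 SE, adjusted p = 0.0253 in edgeR's test). Of all genes tested, 0.452% were called higher with NFIB WT than with EV. The call of FAP held in 8 of 14 alternative fits, and was lost in DESeq2 and without either EV or either NFIB ΔIDR library. With NFIB ΔIDR against NFIB WT, 2 of the 9 were higher (COL1A1 and PDGFRA) and 3 lower (COL1A2, COL3A1 and FAP), where 5.19% and 5.52% of all genes tested were. With NFIB ΔIDR against EV 0 passed, and the medians were 0.08 with NFIB ΔIDR and 0.03 with NFIB WT against EV, and -0.08 between the constructs. Whether fibroblast-like expression had a part in the values of DCN and LUM was not tested. Of 9 chondrocyte and tendon markers, SOX9, THBS4 and MKX passed the filter and 0 passed a test (medians 0.11 with NFIB ΔIDR and 0.25 with NFIB WT against EV, and -0.08 between the constructs). ACAN and COL2A1, which define cartilage, had at most 3 and 5 counts in a library. TNMD, also on this list and not tested, had 3 and 3 counts with NFIB ΔIDR, 9 and 17 with NFIB WT and 3 and 6 with EV.

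Across the 6 libraries, the genes most like DCN among 10595 genes with a mean of at least 5 CPM were PARM1 (Pearson r = 0.996 on log2 CPM), PAQR4, ARHGAP29, RPS28 and GSK3A (0.994). Those most like LUM were UGT3A2 (0.998), VANGL1, CD81, LPAR1 and TSPAN3 (0.995). PARM1, a mucin-like membrane protein, was at 36.3 CPM in NFIB ΔIDR cells, 112 CPM in NFIB WT cells and 46.0 CPM in EV cells. An r takes no account of the size of a change. Log2 fold changes with NFIB WT against EV were 1.28 for PARM1, 0.70 for ARHGAP29 and 0.38 for RPS28. They were 0.20 for PAQR4 and 0.18 for GSK3A, next to 0.74 for DCN. DCN and LUM had an r of 0.981 with each other, while OGN and ASPN had -0.27 and -0.02 with DCN. These values describe 6 points in 3 groups that share libraries and depth, and so carry no p.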

How the data were processed

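RNA-seq counts of SKNMC cells were analysed for 3 groups of 2 libraries, grouped by their titles. Per the labels and the paper's methods, the authors made the deposited counts with CASAVA 2.19, STAR 2.4.0h (hg19) and featureCounts on RefSeq genes, from total RNA libraries (CORALL kit). Whether strand or molecular identifiers entered the counting is not stated in the sources at hand here. The gene length in bases was deposited beside the counts. The paper describes biological duplicates, and p values rest on the spread within the 3 pairs.

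Genes were filtered with filterByExpr (at least 10 counts, 15 in total) and, after TMM scaling, tested with edgeR 4.0.16 in R 4.3.3 (glmQLFit, a mean per group), adjusted by Benjamini-Hochberg over 13501 genes. The paper names DESeq2, which was run as an alternative (DESeq2 1.42.0). Other alternatives were other scaling, no filter, a fit of only the groups compared, robust estimation, blocking by replicate number, a fold threshold of 1.5 with an unadjusted p, and leaving out each library. The tests were first tried on simulated data. Members and gene lists were chosen with earlier results of these data known. Named genes were NFIB, the 7 members, the up to 4 genes of each list with the smallest p and the 5 genes most correlated with each of the 2 most abundant members. Coordinates are from GENCODE on hg19, promoters from RefSeq on GRCh38.p14, and figures were drawn with matplotlib 3.10.9. Intervals cover counting error only.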

Additional observations from a re-analysis of the deposited data

How the results depend on the processing

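The 18 fold changes of the 6 tested genes were recomputed under 14 alternatives, apart from FMOD with NFIB ΔIDR against EV, which did not pass the filter in the fit of those 2 groups and so had 13. Their direction held except for OGN with NFIB WT against EV, at -0.079 without EV replicate 2 and -0.046 without NFIB WT replicate 1 (-0.079 to 0.38 when libraries were left out), and for BGN with NFIB ΔIDR against NFIB WT, at 0.21 without NFIB ΔIDR replicate 1 and 0.37 without NFIB WT replicate 2 (-0.35 to 0.37). None of these was called. For NFIB WT against EV, 1 gene was called higher. The count was 2 with DESeq2, with the replicate block and with robust estimation (DCN and LUM), 3 with no filter on low counts and at a fold of 1.5 with an unadjusted p (DCN, LUM and FMOD, the last of which was admitted by its NFIB WT libraries in the filtered fit), 0 in a fit of the 2 groups alone, and 0 to 3 when libraries were left out. For NFIB ΔIDR against EV, 0 were called higher. The count was 1 with no filter and at the fold threshold (ASPN), 2 in the fit of 2 groups (ASPN and OGN), and 0 to 2 when libraries were left out. In the same comparison 0 were called lower, and 2 were in the fit of 2 groups (DCN and LUM), with 0 to 2 when libraries were left out. For NFIB ΔIDR against NFIB WT, 2 were called lower, and 1 to 2 when libraries were left out, while 0 were called higher, and 0 to 1 when libraries were left out. A group with 1 library left was assumed to vary like the others. The cause of these shifts was not tested. Shares of all genes called were computed in the main fit alone, so counts under the other fits stand without one.

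Replicate numbers are shared by the groups in name. Deviations of same-numbered libraries correlated at 0.02, 0.15 and 0.05 over 13501 genes, so the numbers were not taken as pairs. Apart from the block's second call of LUM, it changed no count. Depth limited FMOD, BGN and PRELP the most, with 36 counts of FMOD and 11 of PRELP over all libraries. Calls of genes outside the family were often lost when a library was left out. For COL14A1 and ELN this was 1 particular library, while DSEL, COL1A2 and TGFBR1 lost their calls without either NFIB ΔIDR library. B4GALT1, VCAN and RMRP also lost theirs in DESeq2 and in the fit of the 2 groups alone. Of those named, CHST11 and BMP2 held in each alternative fit.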

Other observations

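Proteoglycans outside the family, set from a list of 28 genes of which 17 were tested, were called against EV in 0 cases with NFIB ΔIDR (median log2 fold change 0.03) and in 0 with NFIB WT (median -0.0084). With NFIB ΔIDR against NFIB WT, 1 was higher and 2 were lower (median 0.04), where 5.19% and 5.52% of all genes tested were. VCAN, the large matrix proteoglycan versican, was at 7.30 ± 0.949 CPM in NFIB ΔIDR cells and 3.84 ± 0.511 CPM in NFIB WT cells (log2 ratio 0.93 ± 0.23 SE, adjusted p = 0.0273 in edgeR's test). The glypicans GPC4 and GPC6, which carry heparan sulfate at the cell surface, were lower with NFIB ΔIDR (GPC4 -0.78 ± 0.18 SE on the log2 scale, adjusted p = 0.0236, and GPC6 -0.48 ± 0.12 SE, adjusted p = 0.0311). SPOCK1, a secreted testican, was at 6.45 ± 0.697 CPM in NFIB ΔIDR cells and 3.58 ± 0.875 CPM in NFIB WT cells and did not pass (adjusted p = 0.0535). The calls of VCAN, GPC4 and GPC6 held in 8, 10 and 9 of 14 alternative fits.

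Of 11 other genes of the small leucine-rich family, 8 were in the count table and 3 were tested (OMD, ECM2 and TSKU). Against EV 0 passed with either construct (median 0.34 with NFIB ΔIDR and -0.16 with NFIB WT). ECM2 was the gene called higher with NFIB ΔIDR than with NFIB WT (median 0.50), where 5.19% of all genes tested were. TSKU was at 13.4 ± 1.67 CPM in NFIB ΔIDR cells, 14.4 ± 2.92 CPM in NFIB WT cells and 11.9 ± 1.22 CPM in EV cells. Among 9 Ewing sarcoma markers, LIPI, a phospholipase, was at 114 ± 16.5 CPM in NFIB WT cells and 74.4 ± 3.11 CPM in EV cells and rose (log2 ratio 0.62 ± 0.11 SE, adjusted p = 0.0376), a call that held in 9 of 14 alternative fits. Of all genes tested, 0.452% were called higher with NFIB WT than with EV. LIPI was lower and STEAP1 higher with NFIB ΔIDR than with NFIB WT, where 5.52% and 5.19% of all genes tested were. With NFIB ΔIDR against EV, 0 of the markers passed (medians -0.06 with NFIB ΔIDR and -0.08 with NFIB WT against EV, -0.08 between the constructs). Of 4 structural RNAs, RMRP was lower with NFIB ΔIDR than with NFIB WT (log2 ratio -0.78 ± 0.21 SE, adjusted p = 0.0387, held in 8 of 14 alternative fits), and 0 passed against EV (medians 0.05 with NFIB ΔIDR, 0.53 with NFIB WT, and -0.53 between the constructs). Between the constructs, 5.52% of all genes tested were called lower.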
